A study of Mus musculus with 2 samples.

Results

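The genes described here are 10 markers and effectors of type 2 conventional dendritic cells (cDC2), of mature dendritic cells and of T cell costimulation. They are Cd209a, Sirpa, Irf4, Clec10a, Itgax, Ccr7, Cd80, Cd86, Cd40 and Il12b. They were chosen by name among the 24346 gene symbols with a deposited value, and all 10 were found. RNA sequencing was carried out on mouse heart tissue that had been kept in a stabilising reagent for RNA and frozen. The comparison holds 2 libraries, 1 of heart tissue labelled HFD-MI and probucol, and 1 of tissue labelled HFD-MI and untreated. By the series title MI is myocardial infarction, and HFD is the usual abbreviation of a high-fat diet. Both samples carry the age label day 14, without the event from which days were counted. The labels do not state strain, genotype, the part of the heart sampled, or whether a library was made from 1 animal or from a pool. The headers of the deposited tables carry the mark HypoE, which may refer to the genotype of both groups but is not explained and was not interpreted. The title concerns the activation of CD4+ T helper 1 cells by dendritic cells after infarction, so these genes bear on how much antigen-presenting and costimulatory transcript the tissue held. With 1 library per group there is no replicate and no test between treatments, and every difference below is between these libraries.

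Conventional dendritic cells take up antigen in a tissue and present it to T cells. The cDC2 branch, which depends on the transcription factor IRF4, presents mainly to CD4+ T cells. On maturation these cells gain the chemokine receptor CCR7, which guides them along lymph vessels, and the surface proteins CD80, CD86 and CD40. CD80 and CD86 give the second signal to CD28 on T cells, CD40 receives a signal from CD40 ligand on activated T cells, and IL-12 drives the T helper 1 fate. Probucol is an antioxidant drug that lowers cholesterol. In whole tissue, fewer cells of a type and less RNA per cell cannot be told apart. Sirpa, Itgax, Clec10a, Cd80, Cd86 and Cd40 are also transcribed by macrophages and monocytes.

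Levels were deposited as FPKM, which counts fragments by transcript length and by the size of the library. A gene was called measured when the mean of its levels was at least 0.5 FPKM, which 12882 genes reached. Of the 10 genes, 7 were measured, while Irf4, Ccr7 and Il12b were under this limit. Differences are given as log2((FPKM probucol + 0.5)/(FPKM untreated + 0.5)), and folds named as such are on this scale, which understates differences of low genes. On it, 4 of the 7 (Itgax, Cd80, Sirpa and Clec10a) were lower with probucol by at least 1.5-fold, as were 12.0% of all measured genes. Of the 7, 0 were higher by 1.5-fold or more, as were 5.52% of all measured genes. Itgax, Cd80 and Sirpa were lower by 2-fold or more, a limit that 5.14% of all measured genes passed, and 1.07% passed it in the other direction. The median log2 ratio of the 7 was -0.90, against 0.01 for all measured genes.

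The promoters of Itgax and Cd209a are shown because these genes had the lowest and the highest log2 ratio among the 10 genes with at least 1 FPKM in a library. Each runs from 250 bases before to 50 bases after the start of transcription, on the coding strand, and is taken from RefSeq on GRCm38.p6, the assembly of mm10. Capitals mark matches to the motifs searched, in either orientation.
Itgax promoter, chr7:128129300-128129599, plus strand: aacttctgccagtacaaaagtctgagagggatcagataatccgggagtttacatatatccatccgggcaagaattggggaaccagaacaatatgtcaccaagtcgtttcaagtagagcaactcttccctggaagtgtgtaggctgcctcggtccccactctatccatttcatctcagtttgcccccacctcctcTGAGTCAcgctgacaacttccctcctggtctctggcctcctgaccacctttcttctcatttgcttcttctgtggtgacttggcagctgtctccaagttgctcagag
Cd209a promoter, chr8:3748935-3749234, minus strand: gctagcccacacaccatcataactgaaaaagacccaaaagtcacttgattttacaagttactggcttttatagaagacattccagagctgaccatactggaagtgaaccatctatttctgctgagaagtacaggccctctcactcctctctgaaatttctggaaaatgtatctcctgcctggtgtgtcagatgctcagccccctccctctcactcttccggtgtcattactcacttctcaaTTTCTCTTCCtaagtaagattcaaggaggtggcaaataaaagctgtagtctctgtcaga
The Itgax window held the AP-1 motif TGACTCA in reverse orientation, starting 56 bases before the start of transcription. The Cd209a window held the ETS-IRF composite element in reverse orientation, starting 9 bases before the start, an element to which PU.1 binds together with IRF4 or IRF8. The AP-1 motif lay in 5.20% and the composite element in 2.71% of the 32851 promoter windows of the same length. Neither window held the interferon-stimulated response element core (3.44% of windows), the PU.1 motif GAGGAAGT (3.20%) or the NF-kappaB motif (20.7%), both strands being searched. Matches of the first of these motifs and of the composite element can overlap. Promoter windows were at hand for 5 of the 10 genes. Of the other 3, Cd80 and Irf4 each held 1 NF-kappaB match and none of the other motifs, and Il12b held 0 matches of the 5 motifs. The Cd80 window (chromosome 16, 38458683 to 38458982) lies inside the gene as annotated in GENCODE, which begins at 38455561. It thus surrounds another start than the annotated one. A match describes these letters and does not show binding.

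Among the cDC2 identity genes, Itgax, Sirpa and Clec10a were lower with probucol, and no difference of Cd209a or Irf4 was detectable. Cd209a, a C-type lectin of mouse cDC2 and of monocyte-derived dendritic cells (chromosome 8, 3743397 to 3748984 in the GENCODE annotation of GRCm38), had 3.40 FPKM with probucol and 2.20 FPKM in the untreated tissue. Of the 7 measured genes, it was the 1 with a log2 ratio above 0 (0.53). By the size of the smallest steps in the FPKM values, these levels stand for 29 and 21 fragments. The FPKM ratio without a pseudocount was 1.54, with an exact binomial (Clopper-Pearson) 95% interval from 0.849 to 2.84. The interval includes 1, so the higher level was not detectable as a difference at this depth. Intervals of this kind hold counting error alone, because copies made by amplification are not separate molecules, and they say nothing of variation between hearts.

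**Figure D1:**
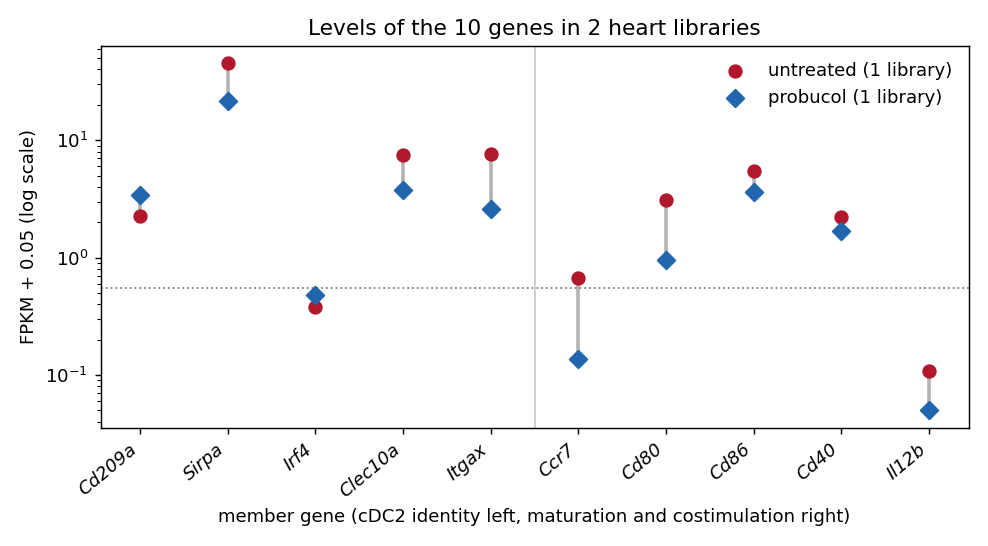
Level of each of the 10 genes in FPKM plus 0.05 (vertical log axis) in the untreated library (circles) and the probucol library (diamonds), with 1 library per group and no error bars; the dotted line marks 0.5 FPKM. Sirpa stands highest in both libraries, at 21.5 and 45.1 FPKM, Cd209a and Irf4 are the genes with the diamond above the circle, and Il12b is listed at 0 in the probucol library.

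Itgax was the lowest of the 7 by log2 ratio. It encodes CD11c, the integrin alpha chain used to define dendritic cells, which some macrophages also carry (chromosome 7, 128129547 to 128150657). Its level was 2.54 FPKM with probucol and 7.58 FPKM without, a log2 ratio of -1.41 or 2.65-fold lower. These levels stand for 65 and 216 fragments, and the FPKM ratio lay between 0.250 and 0.445. This interval and that of Cd209a do not overlap. Itgax and Cd209a were compared because they had the lowest and highest ratios of the 7, so this is a description and not a test. In the order of levels Itgax had rank 2 of the 10 genes in the untreated library and rank 5 in the probucol library.

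Sirpa was the most abundant of the genes in both libraries. It encodes the inhibitory receptor of CD47 that marks cDC2 among dendritic cells and is also carried by macrophages, monocytes and neurons (chromosome 2, 129592835 to 129632228). It had 21.5 FPKM with probucol and 45.1 FPKM without, a log2 ratio of -1.05 or 2.08-fold lower. Its transcripts of at least 1000 bases differ in length, so its fragments can only be bounded, at 447 to 538 with probucol and 1048 to 1263 without. With the smaller numbers the FPKM ratio lay between 0.425 and 0.532, the narrowest interval of the 10 genes.

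Clec10a, the macrophage galactose lectin found on cDC2 and on macrophages, needs care because a neighbouring paralog shares sequence with it. It lies on chromosome 11, 70156197 to 70170834, and had 3.70 FPKM with probucol and 7.37 FPKM without, a log2 ratio of -0.90. About 30 and 68 fragments stand behind these levels, with an FPKM ratio between 0.309 and 0.767. Of the 50-base windows of its longest transcript paired with RefSeq, 16.7% also occur in transcripts of Mgl2, a lectin of the same family that is a marker of dermal and other cDC2. Mgl2, chosen after its values were seen, went the other way, with 6.46 FPKM with probucol and 3.59 FPKM without. From 58 and 36 fragments its FPKM ratio lay between 1.17 and 2.80, above the interval of Clec10a. The summed level of Clec10a and Mgl2 was 10.2 against 11.0 FPKM, a log2 ratio of -0.10. The labels do not say how the authors' tools divided fragments between these paralogs, so the lower level of Clec10a on its own is uncertain. With Clec10a replaced by this sum, and Itgax by its sum with Itgad, 3 of the 7 genes passed the 1.5-fold limit, with a median of -0.54. Itgax shares 9.61% of its windows with Itgad, but Itgad had only 0.0795 and 0.642 FPKM, and the sum kept a log2 ratio of -1.48. Clec10a stood 3.34-fold above Cd209a in FPKM in the untreated library and 1.09-fold above it in the probucol library.

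Irf4, the transcription factor on which cDC2 depend and which B cells and plasma cells also use (chromosome 13, 30749226 to 30766976), was scarce. It had 0.434 FPKM with probucol and 0.329 FPKM without, which stand for 13 and 11 fragments. The FPKM ratio of 1.32 had an interval from 0.545 to 3.25, so neither direction was detectable at this depth.

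**Figure D2:**
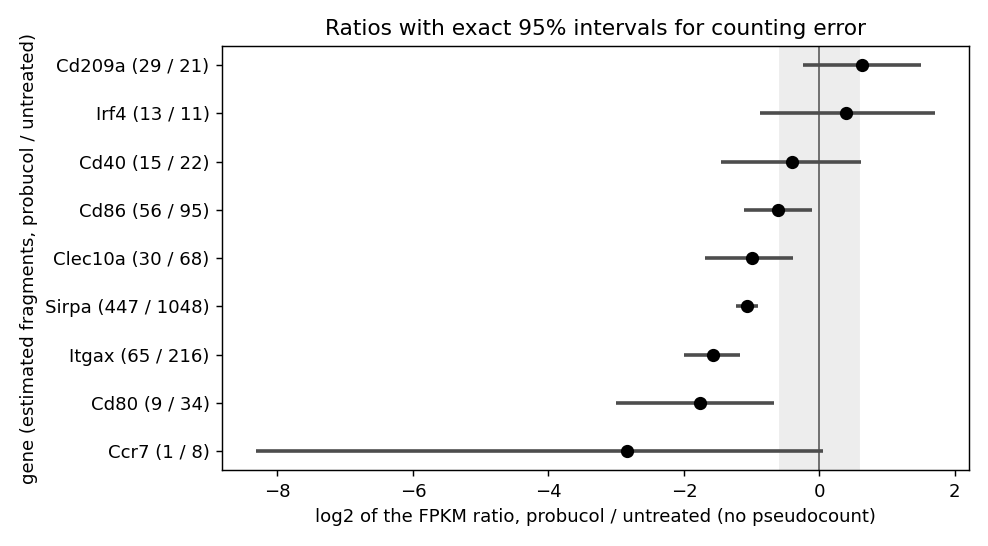
FPKM ratio of probucol to untreated on a log2 axis without a pseudocount for the 9 genes with a value above 0 in both libraries, with bars for exact 95% intervals of counting error and the estimated fragments of both libraries beside each name; the grey band is within 1.5-fold. The bars of Sirpa, Itgax, Clec10a, Cd80 and Cd86 lie below 0, while those of Cd209a, Irf4, Cd40 and Ccr7 include it.

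The paired costimulatory ligands Cd80 and Cd86, members of the B7 family on the same chromosome, were both lower with probucol. Cd80 (chromosome 16, 38455561 to 38496335), which binds CD28 and more tightly the inhibitory receptor CTLA-4, had 0.901 FPKM with probucol and 3.05 FPKM without. From 9 and 34 fragments, its FPKM ratio lay between 0.125 and 0.629, and its log2 ratio was -1.34, or 2.53-fold lower. Cd86 (chromosome 16, 36603869 to 36666081), the ligand present earlier on resting antigen-presenting cells, had 3.59 FPKM with probucol and 5.46 FPKM without. Its log2 ratio of -0.54 was within 1.5-fold, and from 56 and 95 fragments its FPKM ratio lay between 0.464 and 0.924. Cd86 stood 3.98-fold above Cd80 in FPKM with probucol and 1.79-fold above it without. The intervals of their ratios overlap, so an unequal change of the pair was not shown.

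Cd40, the receptor through which T cells license dendritic cells and which B cells, macrophages and endothelium also carry (chromosome 2, 165055627 to 165072948), differed little. It had 1.64 FPKM with probucol and 2.18 FPKM without, a log2 ratio of -0.32. Between 15 and 30 fragments with probucol and between 22 and 45 without stand behind these levels, depending on the transcript. With the smaller numbers the interval of the FPKM ratio was 0.367 to 1.53, which includes 1.

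The migration receptor and the cytokine subunit were at the limit of detection. Ccr7 (chromosome 11, 99144196 to 99155077) had 0.0870 FPKM with probucol and 0.624 FPKM without, which stand for 1 and 8 fragments. Its FPKM ratio of 0.139 had an interval from 0.00314 to 1.04. The lower level therefore just fails to leave counting error. Il12b, which encodes the p40 chain shared by IL-12 and IL-23 (chromosome 11, 44400063 to 44414033), was listed at 0 with probucol and at 0.0583 FPKM without. The latter value is worth 0.71 of 1 fragment in its 1861-base transcript. A count of 0 allows up to 3 fragments, or 0.274 FPKM, so no difference can be read from Il12b.

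In the order of levels the untreated library had Sirpa, Itgax, Clec10a, Cd86, Cd80, Cd209a, Cd40, Ccr7, Irf4 and Il12b, from high to low. The probucol library had Sirpa, Clec10a, Cd86, Cd209a, Itgax, Cd40, Cd80, Irf4, Ccr7 and Il12b. FPKM is per length, so these levels may be compared between genes. Sirpa stood 8.43-fold above Itgax with probucol and 5.95-fold above it without. Clec10a, Cd86 and Cd209a, between 3.40 and 3.70 FPKM, were close together with probucol, as were Cd209a and Cd40 without, at 2.20 and 2.18 FPKM. With 1 library each, the spread that would separate such neighbours is not known.

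**Figure D3:**
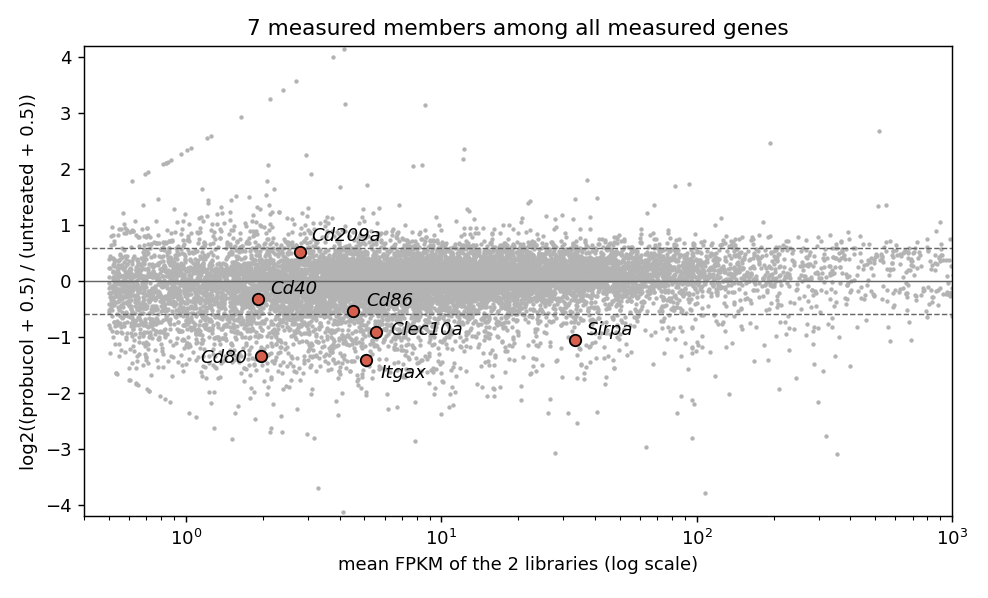
Log2 ratio (vertical) against the mean FPKM of the 2 libraries (horizontal log axis) for all measured genes in grey and the 7 measured genes of the set in colour; dashed lines mark 1.5-fold, and 133 grey genes lie outside the plotted range. Itgax, Cd80, Sirpa and Clec10a lie under the lower dashed line, Cd86 and Cd40 between the lines below 0, and Cd209a just under the upper line.

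Direct partners of SIRP-alpha and CD11c differed among themselves. Cd47, the ligand of SIRP-alpha on most cells, had 37.0 FPKM with probucol and 40.6 FPKM without, a log2 ratio of -0.13. Ptpn6, the phosphatase SHP-1 of blood cells that SIRP-alpha recruits, had 4.68 against 12.5 FPKM (log2 ratio -1.33), whereas the widely used SHP-2 gene Ptpn11 had 86.6 against 68.4 FPKM (0.34). Itgb2, the beta chain that pairs with CD11c, had 7.82 FPKM with probucol and 23.0 FPKM without. At a log2 ratio of -1.50 it lay beside Itgax, and its level was 3.08-fold that of Itgax with probucol and 3.04-fold without. Itgam, another alpha chain of Itgb2, had a log2 ratio of -1.15, and Itgal had -0.05. Of 6 measured genes of beta2 integrins and their adaptors, 3 were lower by 1.5-fold or more (Itgb2, Itgam and the adaptor Fermt3, -1.18) and 0 higher, with a median of -0.79. The 5 measured genes of the CD47 and SIRP list had a median of -1.33, or -0.73 with a filter at a mean of 1 FPKM. Its 3 lower members were Ptpn6, Thbs1 (-1.45), a matrix protein that also binds CD47, and Sirpb1b (-1.50), an activating relative of Sirpa with 1 and 12 fragments.

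On the T cell side, transcripts were few. Cd28, the receptor of CD80 and CD86, had 1.93 FPKM with probucol and 1.499 FPKM without, from 53 and 46 fragments, and its FPKM ratio lay between 0.850 and 1.95. The CD3 chains of T cells, given below, had far fewer fragments than Cd28, and which cells carried Cd28 was not tested. Ctla4 had 5 against 6 fragments and Icos 0 against 5. Cd40lg, the ligand of CD40, had 1 fragment with probucol and was listed at 0 without. Of the 10 receptors of costimulatory and inhibitory ligands, 2 were measured, Cd28 and Tnfrsf18 (log2 ratio -0.61). Their median of -0.17 becomes 0.28, the value of Cd28 alone, with a filter at a mean of 1 FPKM. Tnfrsf18 rested on 4 fragments with probucol and 8 without, and the interval of its ratio, 0.123 to 2.08, includes 1. Among the other B7 ligands, Cd274, which encodes PD-L1, had 2.53 against 2.42 FPKM (log2 ratio 0.05) and Icosl had -0.22. With Cd276 (-0.79), which fibroblasts also carry, they were the 3 measured genes of that list, whose median was -0.22. The interval of the Cd274 ratio, 0.717 to 1.52, and that of Cd80 do not overlap. Of the TNF family ligands, 1 of 7 was measured, Tnfsf9, at 0.731 against 2.49 FPKM from 5 and 19 fragments.

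Ligands of CCR7 were present in both libraries. Ccl21a, made by lymphatic endothelium, had 39.7 FPKM with probucol and 34.4 FPKM without, a log2 ratio of 0.20, and Ccl19 had 4.09 against 4.71 FPKM. Rows of near-identical copies, Ccl21b and Ccl21c, were listed at 0 in both libraries, so Ccl21a may hold fragments of its copies. Ackr4, a scavenging receptor of these chemokines, had 1.49 against 3.10 FPKM. It was the 1 lower gene among the 4 measured of this list, whose median was 0.01. The other chain of IL-12, Il12a, rested on 2 fragments in each library. The IL-12 receptor gene Il12rb1 was listed at 0 in both, and Il12rb2 had 1.09 against 0.831 FPKM with an interval of the ratio from 0.594 to 2.72. Of 5 measured genes of the IL-12 family list, 2 were lower, Il27ra (-0.84) and Ebi3 (-0.77), and the median was -0.54. Ebi3 rested on 6 fragments with probucol and 14 without, and the interval of its ratio, 0.151 to 1.32, includes 1.

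Lists of related genes placed the set among its neighbours. Of 18 other cDC2 genes, 17 were measured, of which 7 were lower and 2 higher by this limit, and the median log2 ratio was -0.29. The lower ones included the lectins Clec12a (-1.89) and Clec7a (-1.60), which monocytes and macrophages also carry, and the channel-like gene Tmem176a (-0.82). Its partner Tmem176b had 59.8 against 86.6 FPKM and the adhesion gene Esam, which endothelium makes as well, 41.5 against 36.5 FPKM. The higher ones, named after their values were seen, were Mgl2 (0.77) and the corepressor Cbfa2t3 (0.63). Other genes of mature dendritic cells had a median of -0.33, with 5 of 12 measured genes lower and 1 higher. The lower ones were Fscn1, Marcksl1, Relb and, named after their values were seen, Cd83 (-0.73) and the chemokine Ccl5 (-0.74). Ccl5 rested on 6 fragments with probucol and 12 without, and the interval of its ratio, 0.172 to 1.61, includes 1. Fscn1, the actin bundler of dendrites, had 12.6 against 21.8 FPKM (-0.77), Marcksl1, a regulator of actin, had -0.86 and Socs2 -0.21, while Cd200 had 21.3 against 14.0 FPKM (0.59). Which cells carried Cd200 was not tested. Lamp3, a marker of mature dendritic cells, was listed at 0 in both libraries.

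Signalling genes downstream of CD40 differed less than Itgax or Cd80. All 18 genes of the CD40 and NF-kappaB list were measured, and had a median of -0.23, with 2 lower by 1.5-fold or more and 0 higher. Those 2 were Tnfaip3 (-0.74), which encodes the feedback inhibitor A20, and Relb (-0.61), a subunit that mature dendritic cells need. The abundant members Nfkbia (-0.34), Rela (-0.25) and Nfkb1 (-0.05) were within 1.5-fold. Partners and targets of IRF4 had a median of -0.63 over 7 measured genes, 4 of them lower. Among these 4 were Batf3 (-0.94) and Prdm1 (-0.63), which were named after their values were seen. Batf3 rested on 2 fragments with probucol and 6 without, and the interval of its ratio, 0.0367 to 2.08, includes 1. Irf8 (-1.38) and Spi1 (-1.15), which encodes PU.1, were the lowest, and Klf4, needed by part of the cDC2, had 32.0 against 24.4 FPKM (0.39). Klf4 stood far above Irf4 in level, and which cells carried it was not tested.

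Defining dendritic cell transcripts were scarce beside those of macrophages. Flt3, the growth factor receptor of dendritic cells, had 0.173 against 0.350 FPKM (4 and 9 fragments). Zbtb46, a factor of conventional dendritic cells and endothelium, had 4.15 against 4.01 FPKM, a log2 ratio of 0.04. Of 10 genes shared by conventional dendritic cells, 9 were measured and 5 were lower, with a median of -0.65. Those were Havcr2 (-2.29), which encodes TIM-3, the class II chaperone gene H2-DMb2 (-1.35), Spi1, Id2 (20.8 against 42.2 FPKM) and, named after its value was seen, Dpp4 (-0.65). The 4 measured genes within 1.5-fold were Zbtb46, Ciita (-0.04), Kmo (-0.18) and Bcl11a (0.495). All 15 macrophage markers were measured and passed the 1.5-fold limit on the lower side. They had a median of -1.50, a summed level of 1170 FPKM with probucol against 3810 without, and 0 listed at 0. Monocyte markers had a median of -1.01 with 8 of 9 measured genes lower, a summed level of 50.4 against 122 FPKM, and 1 of 10 (Cd177) listed at 0 with probucol. The cDC1 markers had a median of -0.85, with 5 of 8 lower (Irf8, Cadm1 at -1.14, Batf3, Ifi205 at -0.91 and Wdfy4 at -0.78). The other 3 measured, Clec9a (-0.05), Tlr3 (-0.11) and Naaa (-0.11), were within 1.5-fold. Under the filter, Xcr1 had 10 fragments with probucol and 17 without, Itgae 4 and 1, and Gcsam 1 and 2. The summed level of the 11 cDC1 markers was 29.2 against 49.3 FPKM. Batf3 and Irf8 also stand in the list of IRF4 partners, and Spi1 in that list and the shared one. The part of macrophages and monocytes in the lower levels of Itgax, Cd80, Sirpa and Clec10a was not tested.

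Other cell types of the heart differed among themselves. Of 10 B cell markers 2 were measured, Cd79b (0.58, from 7 fragments with probucol and 4 without) and Ebf1 (-0.16). Their median of 0.21 becomes -0.16, the value of Ebf1 alone, with a filter at a mean of 1 FPKM. The 10 markers summed to 5.55 against 5.14 FPKM, of which Ebf1 had 3.17 against 3.59 FPKM. Ms4a1 had at most 2 fragments in a library, and Pax5 was listed at 0 in both. T cell markers summed to 1.91 against 3.17 FPKM over 7 genes, of which Cd4 alone had 0.466 against 1.48 FPKM. Of these genes 2 were measured, Cd4 (-1.04) and Lck (-0.02), with a median of -0.53. Among the CD3 chains, Cd3d had 1 fragment with probucol and 3 without, Cd3e 4 and 0, and Cd3g 0 and 3. The lower sum was thus not a difference across the list. Of 10 endothelial markers 2 were lower, at a median of 0.01, and of 10 heart muscle markers 1 was higher, at a median of 0.44, while fibroblast markers had -0.84 with 8 of 10 lower and a summed level of 952 against 1644 FPKM. Of 3 measured genes of the plasmacytoid list, which includes the muscle gene Cox6a2, the median was -0.29, and it was 0.02 without the filter. Siglech, the defining receptor of plasmacytoid cells, had 4 and 3 fragments.

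**Figure D4:**
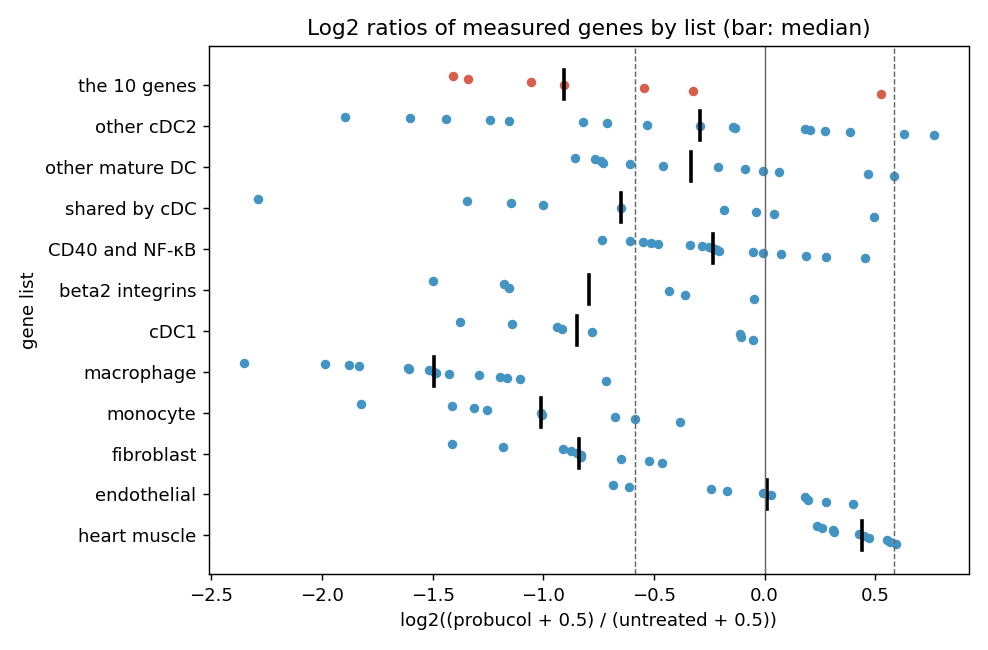
Log2 ratio of each measured gene (points; horizontal axis) by gene list (vertical axis), with a bar at the median of each list and dashed lines at 1.5-fold. The median of the 10 genes' measured members (-0.90) lies between those of other cDC2 genes (-0.29) and macrophage markers (-1.50), and the heart muscle markers all lie above 0.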

How the data were processed

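The deposited values are FPKM, 1 per gene symbol and library, per the file headers. Per the submitters' processing notes the authors used TopHat2 2.1.1, Bowtie2, Cuffdiff 2.2.1 and the build mm10. Which tool did what, the annotation, the strand setting and any scaling across libraries are not stated there. Per the labels' protocols, libraries were made with a stranded mRNA kit. No exon of the 10 genes shares bases with an exon of another gene in GENCODE M21.

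FPKM were compared without rescaling, with a pseudocount of 0.5 FPKM and a filter at a mean of 0.5 FPKM (Python 3.11.15, pandas 2.3.3, scipy 1.17.1). Among 1844 genes low in both libraries, 374 shared a ratio near 1.1156, the ratio of what 1 fragment is worth. With 220 bases subtracted from transcript lengths, 1 FPKM in 1 kb stands for 6.67 fragments with probucol and 7.44 without. Fragments are whole numbers near the length-based estimate whose ratio fits the FPKM within 0.1% where such a pair exists, otherwise rounded estimates. This checks small numbers only. Values of at least 0.5 FPKM were listed for 12657 genes with probucol and 12941 without. The procedure was tested on simulated counts in which every gene had a known transcript length. That test does not cover genes with several lengths or sequence shared between paralogs.

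The 10 genes and the 22 other lists were chosen with earlier results of these data known. Named were the 10 genes, up to 3 most abundant and 2 most different genes of each list, and partners of the 10. Other genes were named after their values were seen. Alternatives were other pseudocounts, filters and scalings, fragment ratios and sums with paralogs.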

Additional observations from a re-analysis of the deposited data

How the results depend on the processing

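Under other pseudocounts and scalings and by fragment ratios, log2 ratios ranged from -1.57 to -1.28 for Itgax, from -1.76 to -1.09 for Cd80, from -1.09 to -1.04 for Sirpa, from -0.60 to -0.49 for Cd86 and from 0.46 to 0.62 for Cd209a. The filter does not alter a single gene's ratio. Clec10a went from -0.90 to -0.10 when summed with Mgl2, a setting chosen after seeing the data. The count of genes at least 1.5-fold lower was 4 of 7, and 3 of 7 with the paralog sums. With a pseudocount of 0.1 FPKM it was 5 of 7, Cd86 (-0.59) being added, as were 1788 of all 12882 measured genes. Without the filter it was 5 of 10, Ccr7 (-0.94, from 1 and 8 fragments) being added, as were 1817 of all 24346 genes. The count at least 1.5-fold higher was 0, and 1 (Cd209a, at 0.60) with a pseudocount of 0.1 FPKM, as were 871 of all 12882 measured genes. The median lay between -0.97 and -0.54, the latter with the paralog sums. Ccr7, on few fragments, ranged from -2.84 to -0.58. Medians of the other lists moved by at least 0.1 in 33 of 131 values. With a filter at a mean of 1 FPKM the T cell receptor list changed direction (0.28), as did B cell markers (-0.16), and the CD47 and SIRP list had -0.73, other cDC2 genes -0.53 and genes shared by conventional dendritic cells -1.004. Without a filter the plasmacytoid list changed direction (0.02), the TNF ligands had 0, cDC1 markers -0.28, other mature dendritic cell genes -0.21, IL-12 family genes -0.30, B7 ligands -0.11 and T cell markers -0.18. With a pseudocount of 0.1 FPKM the IRF4 partners had -1.02. With upper quartile scaling the CCR7 ligand list and endothelial markers, both at 0.01, had -0.02. No paired analysis was possible because each group has 1 library. Leaving out a replicate was not possible either. Depth limits Irf4, Ccr7, Cd40, Cd209a and Il12b, whose intervals include no difference.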

Other observations

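Growth factor systems of dendritic cells and monocytes are described here, since they feed the cells that carry the 10 genes. Of 11 genes, 9 were measured, with a median log2 ratio of -0.72. Of the 9, 6 were lower with probucol by 1.5-fold or more and 0 higher, against 12.0% and 5.52% of all measured genes. The receptor chains of GM-CSF, the growth factor of monocyte-derived dendritic cells, were among the lower ones. Csf2rb2 had 1.67 against 5.35 FPKM (-1.43), Csf2rb had 2.20 against 5.52 FPKM (-1.16) and Csf2ra had 5.01 against 8.89 FPKM (-0.77). Csf2rb and Csf2rb2 are close paralogs, and their separate values are uncertain. The receptor of macrophage growth factor, Csf1r, had 18.2 against 30.3 FPKM (-0.72), and its ligand Csf1 had 14.2 against 17.4 FPKM (-0.28). Csf1r also stands in the list of macrophage markers. The part of macrophages and monocytes in the lower levels of these growth factor genes was not tested. Flt3l, the gene of the ligand of Flt3, had 2.24 against 2.59 FPKM (-0.17), and Il34 had 2.17 against 2.76 FPKM (-0.29). Csf1, Flt3l and Il34 were within 1.5-fold. Csf2, the gene of GM-CSF itself, was listed at 0 with probucol and rested on 1 fragment without.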
